A study of Mus musculus with 2 samples.

Results

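The mature neutrophils described here came from first molars of the lower jaw and surrounding tissue at PN15.5, dissociated and sequenced as single cells. Where in this tissue a cell lay is not recorded. The paper's staining placed Ly6G-positive neutrophils mainly in marrow spaces of the alveolar bone. A cell was chosen from its own counts of unique molecular identifiers (UMIs, each standing for 1 captured transcript). It needed at least 200 genes, no more than 20% of UMIs from mitochondrial genes, at least 2% of its UMIs in S100a8 plus S100a9, under 1% in Camp, Ltf and Ngp together, fewer than 10 UMIs over Mpo, Elane, Ctsg and Prtn3, and at most 2% in Col1a1. The rule took 338 of 17780 kept cells, 239 from the Lipo-Clo library and 99 from the Lipo-PBS library. Lipo-Clo is tissue of C57BL/6J mice that had been injected intraperitoneally with clodronate liposomes, which kill phagocytes that take them up, at 40 μg/g on 4 days, PN3.5 and PN6.5 and then PN9.5 and PN12.5. Lipo-PBS is tissue of mice of the same strain and age given vehicle liposomes. Each condition is 1 library, and how many mice went into it is not given in the sources used here. There is therefore no replicate check and no test between the conditions. Every interval below is at the 95% level and covers counting error only, as exact Clopper-Pearson intervals for shares and exact conditional intervals for ratios of 2 counts.

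Neutrophils are short-lived phagocytes made in bone marrow. They pass from progenitors that make the azurophil granule enzymes (Mpo, Elane) to immature cells that make the specific granule proteins (Camp, Ltf, Ngp), and then to mature cells that stop granule synthesis, carry chemoattractant receptors and can secrete cytokines such as interleukin-1β. S100a8 and S100a9 encode the 2 chains of calprotectin, an abundant cytosolic protein of the lineage. Clodronate liposomes are a tool for removing macrophages, and macrophages are among the cells that clear aged neutrophils.

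Mature neutrophils made up a larger share of the Lipo-Clo library. They were 239 of 8886 kept cells in Lipo-Clo, or 2.69% (2.36 to 3.05%), and 99 of 8894 in Lipo-PBS, or 1.11% (0.906 to 1.35%), a 2.42-fold difference (1.90 to 3.09). The earlier stages differed in the same direction. Immature neutrophils, defined by the same limits but with at least 1% of UMIs in Camp, Ltf and Ngp, numbered 335 (3.77%) in Lipo-Clo against 115 (1.29%) in Lipo-PBS, a 2.92-fold difference (2.35 to 3.64). Progenitors, kept cells with at most 2% Col1a1 and at least 10 UMIs over Mpo, Elane, Ctsg and Prtn3, were 110 cells (1.24%) and 21 (0.236%), a 5.24-fold difference (3.27 to 8.81). The progenitor gate set no limit on S100a8 plus S100a9, which took a median of 3.16% of a cell's UMIs in Lipo-Clo and 0.0272% in Lipo-PBS. It thus took unlike cells in the libraries and does not limit them to the neutrophil lineage. Within these 3 stages together, mature cells made up 34.9% of the 684 Lipo-Clo cells (31.4 to 38.6%) against 42.1% of the 235 Lipo-PBS cells (35.7 to 48.7%). Progenitors made up 16.1% (13.4 to 19.1%) against 8.94% (5.62 to 13.3%). These intervals cover the counting of cells only and do not compare the conditions. Cells gated as macrophages by C1q genes were 2.01% of Lipo-Clo and 2.97% of Lipo-PBS, and those gated as monocytes were 1.33% and 0.708%. B cells were also a larger share of Lipo-Clo, 4.90% against 2.73%, a 1.79-fold difference (1.53 to 2.11). A share of kept cells moves with the numbers of all other cells, and absolute cell numbers were not measured.

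**Figure D1:**
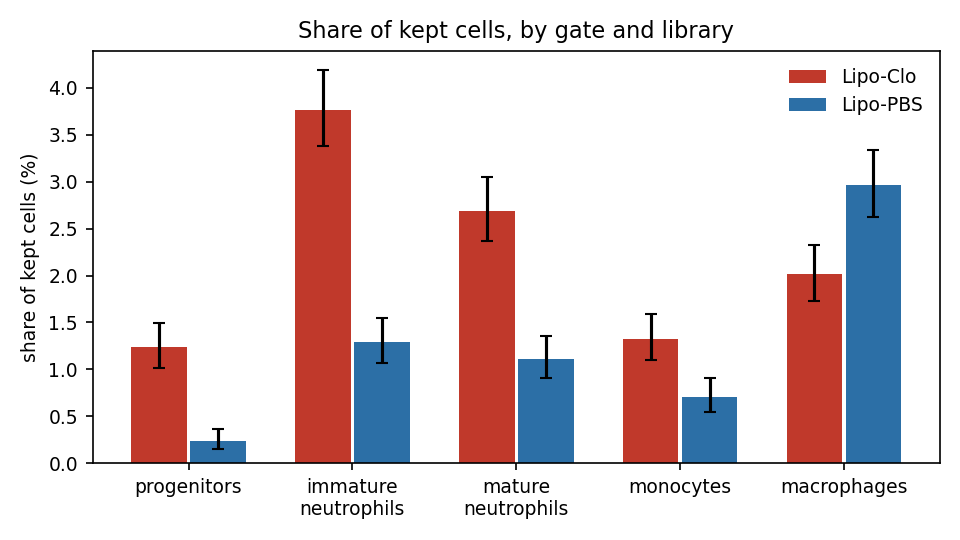
Bars give the share of kept cells (%, y axis) that each gate on the x axis took in the Lipo-Clo and Lipo-PBS libraries, with exact 95% intervals for counting error. Progenitors, immature neutrophils and mature neutrophils are higher in Lipo-Clo (mature 2.69% against 1.11%), while macrophages are lower (2.01% against 2.97%).

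The genes of the rule describe how the cells were chosen. S100a8 plus S100a9 took a median of 15.6% of a cell's UMIs in Lipo-Clo (from 2.00 to 48.3%) and 13.1% in Lipo-PBS (from 2.00 to 39.8%). At the limit of 2%, 11 Lipo-Clo and 9 Lipo-PBS cells lay within 0.5 percentage points above it and 10 and 18 within 0.5 below it. At the limit of 1% for Camp, Ltf and Ngp, 12 and 8 cells lay within 0.25 percentage points below it and 7 and 7 within 0.25 above it. At the limit of 2% for Col1a1, 8 and 7 cells lay within 0.5 percentage points below it and 7 and 6 within 0.5 above it. Within 3 UMIs of the limit of 10 for the azurophil genes lay 4 Lipo-Clo cells below and 2 above, and 0 Lipo-PBS cells. Ctsg had 0 UMIs in the chosen cells of both libraries, Mpo had 3 in Lipo-Clo and 0 in Lipo-PBS, Elane had 14 and 2, and Prtn3 had 56 and 1, of which 4 and 0 were in cells with under 3 monocyte UMIs (over Ccr2, Ly6c2, F13a1 and Ms4a6c).

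The name was checked against 20 neutrophil genes that the rule did not use, among them Csf3r, the receptor for granulocyte colony-stimulating factor, Cxcr2, a chemokine receptor that guides exit from marrow, and Retnlg, a resistin-like gene of mature granulocytes. All 20 had UMIs in both libraries. The median Lipo-Clo cell had UMIs of 10 of them (0 to 17) and the median Lipo-PBS cell of 8 (1 to 14). At least 3 were seen in 225 of 239 Lipo-Clo cells (94.1%) and in 96 of 99 Lipo-PBS cells (97.0%). The median immature neutrophil, a deeper cell, had UMIs of 9 in Lipo-Clo and 8 in Lipo-PBS. With every cell thinned to 500 UMIs the median was 5 in mature and 4 in immature cells of both libraries. By level, 17 of the 20 were in use in the comparison of mature with immature cells, with medians of the log2 ratio of 0.84 in Lipo-Clo and 1.24 in Lipo-PBS, where the medians of all 1041 genes in use there were 0.60 and 0.29. In mature cells of both libraries 6 were at least 2-fold higher and 3 at least 2-fold lower, against 9.32% and 2.21% of all genes. The totals behind these ratios hold the genes of the rule. These took 140087 CPM in mature and 410588 CPM in immature cells of Lipo-Clo, and 119477 and 315217 CPM in Lipo-PBS. That lifts every other gene in the mature cells, and the markers were not compared without it. The median progenitor had 5 and 2, the median monocyte 3 and 1, and the median B cell, endothelial cell and mesenchymal cell 0. Ly6g, the gene of the usual neutrophil surface marker, was sparse, with 79 UMIs in 21.8% of Lipo-Clo cells and 13 UMIs in 11.1% of Lipo-PBS cells.

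The rule also took cells that hold transcripts of other cell types. Of the cells with 2 to 5% S100a8 plus S100a9, 43 were from Lipo-Clo and 21 from Lipo-PBS, and their median number of markers was 6 in both, against 10 and 9 in the cells above 20%. Haemoglobin took at least 5% of UMIs in 15 Lipo-Clo and 14 Lipo-PBS cells and 3.33% and 9.17% of all UMIs of the chosen cells. Epithelial genes summed to 3603 and 2655 CPM (counts scaled to a total of 1000000 UMIs over the chosen cells), with Odam, an ameloblast gene, the most abundant and Epcam at 0 and 1 UMIs. Mesenchymal genes summed to 9490 CPM in Lipo-Clo against 12945 CPM in Lipo-PBS, led by Col1a1. The 12 macrophage genes summed to 215 and 400 CPM, led by Apoe, with 6 and 10 UMIs over C1qa, C1qb and C1qc. The 12 T and NK cell genes had 23 and 11 UMIs in all, with Cd3e, Trac and Gzma at 0 in both. At least 3 UMIs over the monocyte genes Ccr2, Ly6c2, F13a1 and Ms4a6c were found in 37 Lipo-Clo cells and 3 Lipo-PBS cells. Values are therefore also given for 3 restricted sets of cells, which were chosen after the data had been seen. The first holds the cells with at least 10% S100a8 plus S100a9 and under 5% haemoglobin (150 Lipo-Clo and 55 Lipo-PBS cells). The second holds the cells with under 5% of UMIs in the marker genes of mesenchyme, epithelium, endothelium, perivascular cells, red cells, lymphocytes and macrophages (213 and 79 cells), and the third those with under 3 monocyte UMIs (202 and 96 cells).

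**Figure D2:**
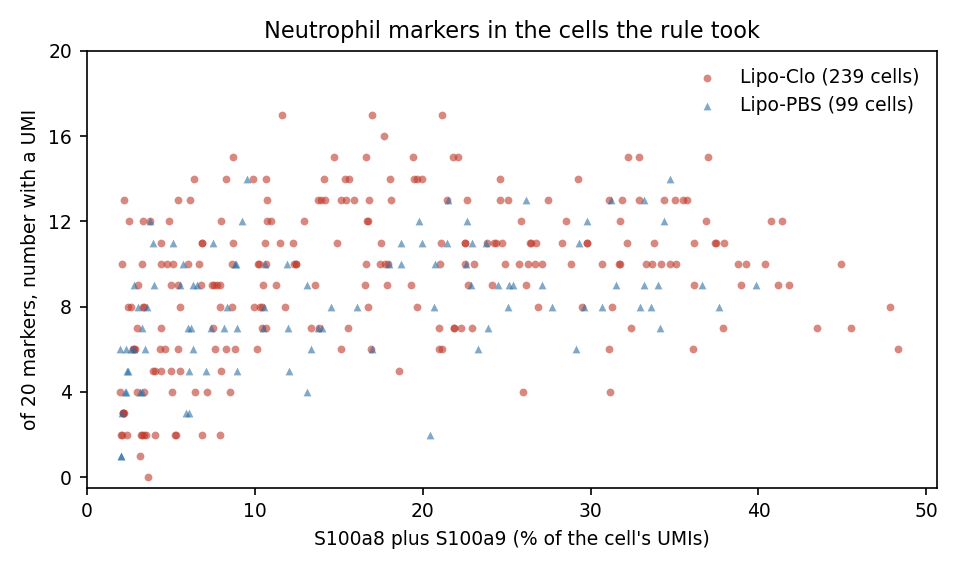
Each point is a chosen cell, with the share of its UMIs in S100a8 plus S100a9 (%, x axis) and the number of 20 neutrophil markers with at least 1 UMI (y axis). Cells with few markers lie mostly at low S100a8 plus S100a9, where the median is 6 of 20 in both libraries.

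The cells of the libraries differed in depth. The deposited matrices held 31053404 UMIs in 9362 cells of Lipo-Clo and 30537834 UMIs in 9653 cells of Lipo-PBS. The 239 Lipo-Clo cells held 647831 UMIs, with a median of 1976 UMIs and 714 genes per cell, and the 99 Lipo-PBS cells held 190196 UMIs, with medians of 1261 and 491. Thinned to 500 UMIs each, which left out no cell, the median cell of both libraries had 279 genes. Transcripts of the mitochondrial genome made up 0.260% of UMIs in the Lipo-Clo cells and 0.802% in the Lipo-PBS cells, and in all kept cells 0.368% and 1.74%. Of 30 barcodes found in both libraries, 2 belonged to chosen Lipo-Clo cells and 0 to chosen Lipo-PBS cells.

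To ask how these neutrophils differed after macrophage depletion, the UMIs of the chosen cells were summed within each library and scaled to CPM, and ratios are of these sums. A total of 1218 genes had a mean CPM of at least 100. Of these, 50 (4.11%) were at least 2-fold higher in Lipo-Clo and 84 (6.9%) at least 2-fold lower, and the median log2 ratio of all 1218 was 0.11. The split turned with the scaling. The TMM factors of edgeR, under which the median was 0.38, gave 113 higher and 50 lower genes, and DESeq2 size factors, under which it was −0.01, gave 34 and 112. Each scaling moves every gene by a constant, 0.27 for TMM and −0.12 for DESeq2. The genes ranked highest and lowest by the interval bound nearest to 0 have ratios larger than these constants, so their direction could not change with the scaling.

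**Figure D3:**
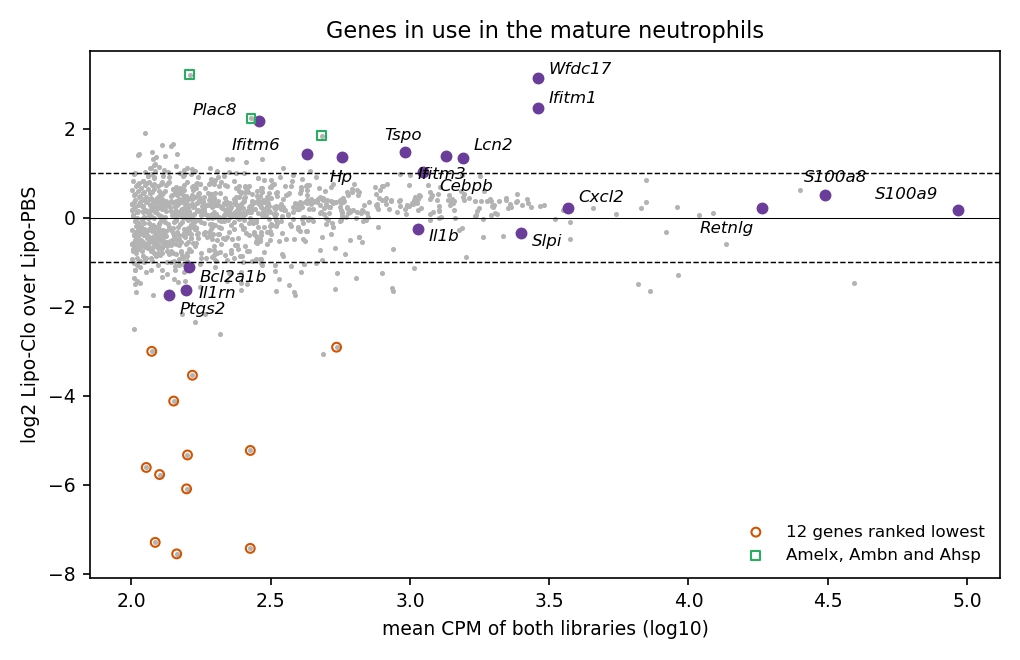
Each point is 1 of the 1218 genes in use, with the mean CPM of both libraries (log10, x axis) and the log2 ratio of Lipo-Clo over Lipo-PBS (y axis), and dashed lines at 2-fold. Wfdc17 and Ifitm1 stand above genes of like abundance at 3.13 and 2.47, S100a9 and Retnlg lie near 0, and the hollow circles are the 12 genes ranked lowest (3 of them bounds), which came mainly from few Lipo-PBS cells.

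Wfdc17 and Ifitm1 led the genes higher in Lipo-Clo. Wfdc17 (ENSMUSG00000069792) encodes a small secreted protein with a whey acidic protein domain, a fold of protease inhibitors, and is a known transcript of myeloid cells. It had 3346 UMIs (5165 CPM) in Lipo-Clo against 112 UMIs (589 CPM) in Lipo-PBS, an 8.77-fold difference and a log2 ratio of 3.13 (2.86 to 3.42). A UMI of Wfdc17 was seen in 73.2% of Lipo-Clo and 22.2% of Lipo-PBS cells. With every cell thinned to 500 UMIs the shares were 54.4% (47.8 to 60.8%) and 14.1% (7.95 to 22.6%), against 0.920% and 1.23% of B cells, which gives the level of free RNA. In Lipo-PBS a single cell held 24.1% of its UMIs. The ratio was 2.50 in the cells with at least 10% S100a8 plus S100a9, 2.65 with other cell types' markers under 5% and 3.38 with under 3 monocyte UMIs. It was 2.16 as a mean over cells of equal weight, 2.25 after thinning and 4.29 in the 168 and 48 cells with at least 500 genes and 10% or less mitochondrial UMIs.

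Ifitm1 (ENSMUSG00000025491) is an interferon-inducible transmembrane gene whose family restricts entry of viruses. It had 3155 UMIs (4870 CPM) in Lipo-Clo and 167 UMIs (878 CPM) in Lipo-PBS, and the log2 ratio was 2.47 (2.25 to 2.70). At 500 UMIs it was seen in 59.0% of Lipo-Clo cells (52.5 to 65.3%) and 25.3% of Lipo-PBS cells (17.1 to 35.0%), against 2.76% and 1.65% of B cells. Its ratio was 2.26, 2.20 and 2.58 in the 3 restricted sets, 1.82 after thinning and 3.31 in the cells with at least 500 genes. Both genes tended to be seen in the same cells. In Lipo-Clo, Wfdc17 was found in 99 of 141 thinned cells with Ifitm1 (70.2%, 61.9 to 77.6%) and in 31 of 98 without it (31.6%, 22.6 to 41.8%), and in Lipo-PBS in 9 of 25 and 5 of 74.

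Other members of the Ifitm cluster on chromosome 7 were also higher. Ifitm3 stood at 1951 CPM in Lipo-Clo against 752 CPM in Lipo-PBS, and the log2 ratio was 1.38 (1.13 to 1.64), and Ifitm6 had 622 and 231 CPM, a ratio of 1.43 (0.98 to 1.91). In the cells with at least 10% S100a8 plus S100a9 these ratios were 0.77 and 1.34. Ifitm2, at 1804 and 1309 CPM, had a ratio of 0.46 (0.26 to 0.67). In a list of 30 interferon-linked genes that also holds the Slfn genes and Wfdc17, 9 were in use, 6 of them were at least 2-fold higher, against 4.11% of all genes in use, and 0 at least 2-fold lower. Their median was 1.31, against 0.11 for all genes in use, and 0.77 in the cells with at least 10% S100a8 plus S100a9. The list was chosen with earlier results of these data known, and it holds genes ranked highest here, among them Wfdc17 and Ifitm3. Its count and median are therefore descriptions, and an interferon response was not tested. Classical interferon targets were nearly absent: Ifit1 had 5 and 1 UMIs, Ifit3 had 2 and 0, Irf7 had 9 and 4, and Mx1 had 0 in both. Isg15, a ubiquitin-like interferon target, had 203 UMIs in Lipo-Clo, 50.7% of them in a single cell, against 24 in Lipo-PBS, a ratio of 1.31 that turned to −0.58 with other cell types' markers under 5%. Ly6e, another member, was at 1.11 (0.30 to 2.03), and at 0.60 with under 3 monocyte UMIs.

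The start regions of the genes that led the list are shown because interferon signalling acts through a short element, the interferon-stimulated response element (ISRE). The RefSeq windows of GRCm38.p6 run from 250 bases before to 50 after the annotated start, each written on the strand of its gene, and capitals mark matches to the letters GAAANNGAAA on either strand.
Wfdc17, chr11:83703806-83704105, plus strand: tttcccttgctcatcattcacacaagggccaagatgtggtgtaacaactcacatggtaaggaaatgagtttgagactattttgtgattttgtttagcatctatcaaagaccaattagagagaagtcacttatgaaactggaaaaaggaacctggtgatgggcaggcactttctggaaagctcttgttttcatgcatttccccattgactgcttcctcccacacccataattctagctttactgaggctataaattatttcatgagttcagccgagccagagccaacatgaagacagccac
Ifitm1, chr7:140967826-140968125, plus strand: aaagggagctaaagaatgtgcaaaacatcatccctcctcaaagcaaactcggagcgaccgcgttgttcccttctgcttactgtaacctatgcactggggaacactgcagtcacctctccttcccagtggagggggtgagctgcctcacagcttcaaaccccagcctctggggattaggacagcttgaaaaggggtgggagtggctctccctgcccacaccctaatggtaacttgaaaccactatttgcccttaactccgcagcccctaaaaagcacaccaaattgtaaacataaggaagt
Ifitm6, chr7:141016843-141017142, minus strand: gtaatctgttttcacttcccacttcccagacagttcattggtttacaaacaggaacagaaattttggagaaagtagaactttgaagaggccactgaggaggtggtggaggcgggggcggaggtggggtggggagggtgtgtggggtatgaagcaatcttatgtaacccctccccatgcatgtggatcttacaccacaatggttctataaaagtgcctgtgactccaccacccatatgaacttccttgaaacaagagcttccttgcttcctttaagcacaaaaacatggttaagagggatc
Ifitm3, chr7:141010695-141010994, minus strand: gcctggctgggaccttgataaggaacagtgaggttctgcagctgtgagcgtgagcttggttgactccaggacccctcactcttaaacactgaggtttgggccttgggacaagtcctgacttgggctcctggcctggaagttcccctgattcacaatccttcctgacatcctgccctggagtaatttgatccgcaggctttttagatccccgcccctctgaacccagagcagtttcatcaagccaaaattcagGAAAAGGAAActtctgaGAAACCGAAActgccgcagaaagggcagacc
The window of Ifitm3 held 2 matches, and the windows of Wfdc17, Ifitm1 and Ifitm6 held 0. Among all 32851 windows of this length 3.44% had a match, and of the 24 genes of the interferon-linked list with a window 12 had one, but of its 8 in use with a window 3 had one. Of the 12 genes ranked highest in Lipo-Clo 9 had a window, and 1 of these, Ifitm3, had a match. The letters TTCNNNGAA, the gamma-activated sequence read by STAT factors, were found in the windows of Ifitm6 and Ifitm3 and in 8.30% of all windows. A match is a description of the letters, not evidence of binding.

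Granule genes divided. Lcn2, which encodes lipocalin-2, an iron-scavenging protein of specific granules, stood at 2224 CPM in Lipo-Clo against 878 CPM in Lipo-PBS, and the log2 ratio was 1.34 (1.11 to 1.58), with 1.01 to 1.33 in the restricted sets. Hp, the gene of haptoglobin, a haemoglobin-binding protein that neutrophils store in granules, had 818 and 321 CPM, a ratio of 1.35 (0.97 to 1.76) that was 0.95 after thinning. Lyz2, lysozyme, was at 0.74 (0.48 to 1.01), but at 0.08 in the cells with at least 10% S100a8 plus S100a9. The gelatinase Mmp9 (329 and 300 CPM) and the collagenase Mmp8 (548 and 573 CPM) had ratios of 0.13 (−0.29 to 0.58) and −0.06 (−0.38 to 0.26), the second of which was 0.20 with TMM factors. In the list of 12 gelatinase granule genes 8 were in use, 1 was at least 2-fold higher (Hp), against 4.11% of all genes in use, and 0 lower. The median was 0.18, and −0.18 in the cells with at least 10% S100a8 plus S100a9, where that of all genes was −0.14. Of the 20 markers 16 were in use, 1 was at least 2-fold higher (Lcn2), a share near that of all genes, and 0 lower, with a median of −0.01. Of the calcium-binding alarmin and related cytosolic genes, S100a8 and S100a9 were used by the rule, and 9 of the others were in use with 0 past 2-fold and a median of 0.24. Retnlg, the most abundant gene outside the rule among the 20 markers, stood at 19886 CPM in Lipo-Clo against 16993 CPM in Lipo-PBS, a ratio of 0.23 (0.17 to 0.28), which was −0.18 in the cells with at least 10% S100a8 plus S100a9. Of the residual specific granule transcripts that the rule used, Camp was at 651 and 1420 CPM and Ngp at 898 and 783 CPM.

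Plac8 and Tspo were higher as well. Plac8, a cysteine-rich gene of leukocytes and progenitors, had 305 UMIs in Lipo-Clo and 20 in Lipo-PBS, and the log2 ratio was 2.16 (1.51 to 2.89), with 2.02 to 2.77 in the restricted sets and 3.63 without doublets. Tspo, the mitochondrial translocator protein, had 911 and 97 UMIs, a ratio of 1.46 (1.16 to 1.78) that was 0.62 after thinning. Ciao2a, a factor of iron-sulphur cluster assembly, had 114 and 9 UMIs and a ratio of 1.89, which was 0.56 (−0.60 to 1.89) with under 3 monocyte UMIs. Of the transcription factor genes, Cebpb, which drives emergency granulopoiesis, stood at 1491 CPM in Lipo-Clo against 736 CPM in Lipo-PBS, a ratio of 1.02 (0.76 to 1.28) that was 0.67 as a mean over cells and 0.90 with DESeq2 size factors, and Spi1, the gene of PU.1, was at 1.04 (0.37 to 1.77). Of 21 such genes 10 were in use, 2 were at least 2-fold higher, against 4.11% of all genes in use, and 0 lower, with a median of 0.14 beside 0.11 for all genes.

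Of the inflammatory genes, those of the largest counts lay near the median of all genes and a few lay lower in Lipo-Clo. Cxcl2, a chemokine that recruits neutrophils, stood at 3956 CPM in Lipo-Clo against 3407 CPM in Lipo-PBS, and the log2 ratio was 0.22 (0.09 to 0.34), and −0.20 in the cells with at least 10% S100a8 plus S100a9. Il1b, the gene of interleukin-1β, had 980 and 1162 CPM, a ratio of −0.25 (−0.47 to −0.02) that was 0.02 with TMM factors, 0.05 with under 3 monocyte UMIs and 0.57 in the cells with at least 500 genes. Il1rn, which encodes the antagonist of the interleukin-1 receptor, had 50 UMIs (77.2 CPM) in Lipo-Clo against 45 UMIs (237 CPM) in Lipo-PBS, a ratio of −1.62 (−2.23 to −1.002). Ptgs2, the inducible cyclooxygenase, had 41 UMIs (63.3 CPM) and 40 UMIs (210 CPM), a ratio of −1.73 (−2.40 to −1.07). In the restricted sets Il1rn was between −2.13 and −1.43 and Ptgs2 between −2.75 and −1.81. In the cells with at least 500 genes Il1rn was at −0.11, which is not past 2-fold, and Ptgs2 at −1.29. Nlrp3, the inflammasome sensor, was at −0.92 (−1.35 to −0.49) and Ccl4 at −0.84 (−1.33 to −0.33). Of 27 inflammatory genes 14 were in use, 0 were at least 2-fold higher and 2 at least 2-fold lower (Il1rn and Ptgs2), against 6.9% of all genes in use, with a median of −0.23 that was 0.04 with TMM factors. At 500 UMIs Ptgs2 was seen in 3.35% of Lipo-Clo cells (1.46 to 6.49%) and 16.2% of Lipo-PBS cells (9.53 to 24.9%), and Il1b in 35.1% and 39.4%.

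Of 22 chemoattractant and cytokine receptors 7 were in use, and 0 lay past 2-fold in either direction. Of these 7, 6 were below 0, as were 513 of all 1218 genes in use. Their median was −0.41, and −0.84 in the cells with at least 10% S100a8 plus S100a9. It was −0.15 both with TMM factors and with under 3 monocyte UMIs. Fpr1, a receptor for bacterial formyl peptides, stood at 497 CPM in Lipo-Clo against 515 CPM in Lipo-PBS, Csf3r had 156 and 184 CPM, and Cxcr2 had 97.2 and 131 CPM. The ratio of Csf3r was −0.24 (−0.81 to 0.36), 0.03 with TMM factors and −0.73 in the cells with at least 10% S100a8 plus S100a9. That of Cxcr2 was −0.43 (−1.12 to 0.30), and 0.63 in the cells with at least 500 genes. In the cells with at least 10% S100a8 plus S100a9 it was −1.001, just past 2-fold. Of 26 pattern recognition receptor genes 13 were in use and 0 lay past 2-fold, with a median of 0.07. Among these, Clec4d, a C-type lectin receptor, was at −0.82 (−1.21 to −0.42), and Cd14, a co-receptor for lipopolysaccharide, was at 0.83 (0.35 to 1.35). Of 25 adhesion and migration genes 14 were in use with 0 past 2-fold and a median of 0.36. Of 8 NADPH oxidase genes 7 were in use with 0 past 2-fold and a median of 0.31. In the cells with at least 10% S100a8 plus S100a9 these medians were 0.03 and 0.12, where that of all genes was −0.14. Of 18 survival genes 8 were in use and 1 was at least 2-fold lower, against 6.9% of all genes in use. This was Bcl2a1b, a BCL2-family inhibitor of apoptosis, at −1.12 (−1.70 to −0.52). Mcl1, on which neutrophil survival depends, was at −0.07 (−0.36 to 0.22). Of 25 metabolic genes 10 were in use with 0 past 2-fold and a median of 0.53. That median was 0.28 as a mean over cells and 0.13 in the cells with at least 10% S100a8 plus S100a9. Of 21 cell cycle genes 6 were in use and 2 were at least 2-fold higher, Ube2c, a ubiquitin-conjugating enzyme of mitosis, and Hmgn2, a nucleosome-binding protein, against 4.11% of all genes in use, with a median of 0.80. All 6 lay above 0. In the cells with at least 10% S100a8 plus S100a9 the median of this list was 1.10, where that of all genes was −0.14. These lists are small, and nothing particular to them was read from the counts.

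Several of the highest and all 12 of the lowest ranked genes came mainly from few cells. In Lipo-Clo a single cell held 54.0% of the 189 UMIs of Amelx and 33.6% of the 488 UMIs of Ambn, genes of enamel matrix proteins, and the red cell gene Ahsp turned from 2.23 to −3.27 with other cell types' markers under 5%. The 12 lowest were Ccl21a, Sprr1a, Defb4, Wfdc12, Krtdap, Krt1, Fam25a, Calm4, Krt10, Krt6a, Mt4 and Sfn, most of them genes of differentiating keratinocytes. A single Lipo-PBS cell held all but 1 of the 101 UMIs of Sprr1a, 87.3% of the 55 of Krtdap and 100% of the 43 of Wfdc12. Ccl21a, a lymphatic chemokine, had 60 UMIs in Lipo-PBS, 56.7% of them in a single cell, and 0 in Lipo-Clo. In the cells with at least 10% S100a8 plus S100a9, Sprr1a had 1 UMI in each library, and Defb4, Wfdc12 and Calm4 had 0 in both.

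Restricting the cells left other genes in the ranking. With at least 10% S100a8 plus S100a9 and under 5% haemoglobin, also chosen with the values known, 310630 UMIs of Lipo-Clo and 63504 of Lipo-PBS remained, and 1130 genes were in use with a median log2 ratio of −0.14. The ranking was again led by Wfdc17 and Ifitm1. The ameloblast genes Ambn and Odam came next. Prok2, which encodes the chemoattractant prokineticin-2 and is expressed by neutrophils, had 98 UMIs in Lipo-Clo and 2 in Lipo-PBS there, a ratio of 3.32 (1.43 to 6.39), and in all chosen cells 118 and 3. The lowest were Cxcl3, a chemokine with 4 and 16 UMIs (−4.29, −6.33 to −2.66), the smooth muscle gene Tagln, and Thbs1, which encodes thrombospondin-1, with 64 and 67 UMIs (−2.36, −2.87 to −1.84). Ptgs2 (16 and 22 UMIs) and Il1rn (29 and 26 UMIs) followed. In all chosen cells Thbs1 was at −1.51, with 124 UMIs in Lipo-Clo and 104 in Lipo-PBS.

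The ratios were also taken within ranges of S100a8 plus S100a9. Wfdc17 was higher in Lipo-Clo in all 4 ranges, from 1.62 (1.09 to 2.21) at 10 to 20% to 3.797 (3.22 to 4.43) at 5 to 10%. Ifitm1 ranged from 1.30 (0.90 to 1.73) to 2.999 (2.58 to 3.45), and Lcn2 from 0.79 (0.16 to 1.46) to 2.83 (1.84 to 4.05). Retnlg stayed between −0.20 and 0.01. Il1b was at −1.27 (−1.68 to −0.83) in the range of 10 to 20%, which holds 19 Lipo-PBS cells with a median of 887 UMIs against 2516 in Lipo-Clo, and between −0.45 and 0.16 in the other ranges. Ptgs2 was at −2.33 at 2 to 5%, 0.39 (−0.99 to 2.00) at 5 to 10%, −4.42 at 10 to 20% and −0.95 (−2.68 to 0.98) at 20 to 50%, and the 19 cells of the range of 10 to 20% held 17 of its 40 Lipo-PBS UMIs. Il1rn was at −0.28 (−1.59 to 1.16) at 5 to 10% and between −3.06 and −1.42 in the other ranges.

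**Figure D4:**
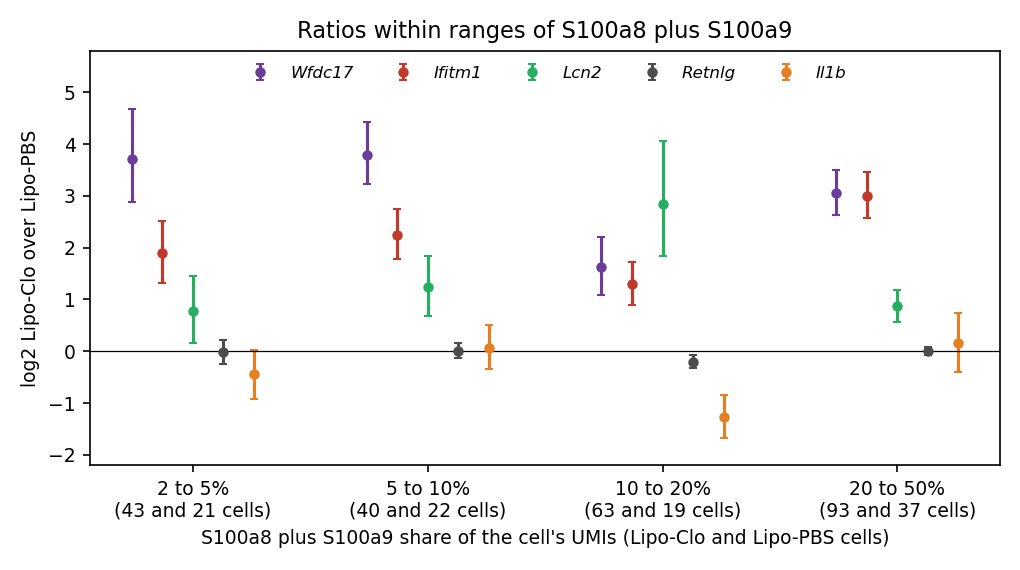
Points give the log2 ratio of Lipo-Clo over Lipo-PBS (y axis) of 5 genes within 4 ranges of S100a8 plus S100a9 (x axis), with exact 95% intervals for counting error. Wfdc17 and Ifitm1 lie above 0 in each range, Retnlg lies near 0, and Il1b departs from 0 only in the range of 10 to 20%, at −1.27.

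All 10 mitochondrially coded genes in use were at least 2-fold lower in Lipo-Clo, against 6.9% of all genes, with a median of −1.59, and the whole libraries differed in the same direction. Of 75 ribosomal protein genes in use 66 were above 0 and 0 lay past 2-fold, with a median of 0.25. Of all 1218 genes in use 705 were above 0, with a median of 0.11. In a list of 23 early response genes that tissue dissociation is known to induce, 18 were in use, 0 were at least 2-fold higher and 2 at least 2-fold lower, against 6.9% of all genes, with a median of −0.28. These were Hspb1, a small heat shock protein, and Btg2, which restrains cell division. The median of the list was −0.01 with TMM factors and −0.03 in the cells with at least 10% S100a8 plus S100a9.

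Mature cells were then set beside the immature cells of the same library to describe what the stages share. Of 1041 genes with a mean CPM of at least 100 over the 4 sums, 97 (9.32%) were at least 2-fold higher in mature cells in both libraries and 23 (2.21%) at least 2-fold lower. A gene with 0 UMIs in a sum was set at 3 counts. With the genes of the rule left out of the totals the counts were 43 and 55. Since the rule separates the stages, these values describe them and were not tested. Il1b had 980 CPM in mature and 63.2 CPM in immature cells of Lipo-Clo, a log2 ratio of 3.96 (3.63 to 4.29), and 1162 and 32.9 CPM in Lipo-PBS, a ratio of 5.14 (4.31 to 6.12). Ccl6, a chemokine of myeloid cells, was higher by 4.07 and 4.81, Nlrp3 by 3.44 and 3.96, and Acod1, which makes itaconate, by 3.13 and 4.82. Of the 27 inflammatory genes 10 were in use here, and 8 were at least 2-fold higher in mature cells of both libraries, against 9.32% of all genes, and 0 lower. Krt13 and Mt4, a keratin and a metallothionein, were ranked among the highest too, with 89.8% of the Krt13 UMIs and 91.6% of the Mt4 UMIs of the Lipo-Clo cells in a single cell.

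The genes lower in mature cells included genes of granule proteins. Of 7 NADPH oxidase genes in use here 1, Cybb, was at least 2-fold lower in both libraries, against 2.21% of all genes in use. Chil3, which encodes a chitinase-like protein made during granulopoiesis, had 92.6 CPM in mature and 1227 CPM in immature cells of Lipo-Clo and 15.8 and 979 CPM in Lipo-PBS, log2 ratios of −3.73 and −5.96. Lcn2 had ratios of −2.01 and −2.72, Cybb, the catalytic subunit of the NADPH oxidase, −2.17 and −2.89, Serpinb1a, an inhibitor of neutrophil serine proteases, −2.46 and −3.41, and Anxa1, a phospholipid-binding protein that limits inflammation, −2.003 and −1.88. The chromatin gene Hmgn2 was lower by the same measure, at −1.80 and −2.59. Of the specific granule genes without the 3 that defined the stages, 5 were in use here, and 4 were at least 2-fold lower in mature cells of both libraries, against 2.21% of all genes in use.

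Wfdc17 and Ifitm1 were compared across stages and cell types to see where the difference between the conditions lay. Wfdc17 had its highest level in mature neutrophils in Lipo-Clo (5165 CPM) and in monocytes in Lipo-PBS (1321 CPM, against 589 CPM in mature neutrophils). Mature cells exceeded immature cells in both libraries, by 3.71 in Lipo-Clo and 4.94 in Lipo-PBS on the log2 scale. In immature neutrophils Wfdc17 had 548 UMIs in Lipo-Clo against 7 in Lipo-PBS, a ratio of 4.36 (3.30 to 5.68). In macrophages it had 323 and 524 UMIs (611 and 610 CPM), a ratio of 0.00 (−0.20 to 0.20), and in monocytes a ratio of 0.23 (0.03 to 0.43). The ratio of Ifitm1 was 3.51 (3.01 to 4.05) in immature neutrophils, 2.13 (1.65 to 2.66) in progenitors, 1.70 (1.21 to 2.23) in monocytes, −0.12 (−0.67 to 0.42) in macrophages and −0.13 (−0.66 to 0.42) in B cells. Prok2 had 109 and 3 UMIs in immature neutrophils and 0 in the monocytes, macrophages and B cells of both libraries. These groups were gated by a few genes each and share the libraries. Whether the ratios of the cell types differ from each other was not tested.

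**Figure D5:**
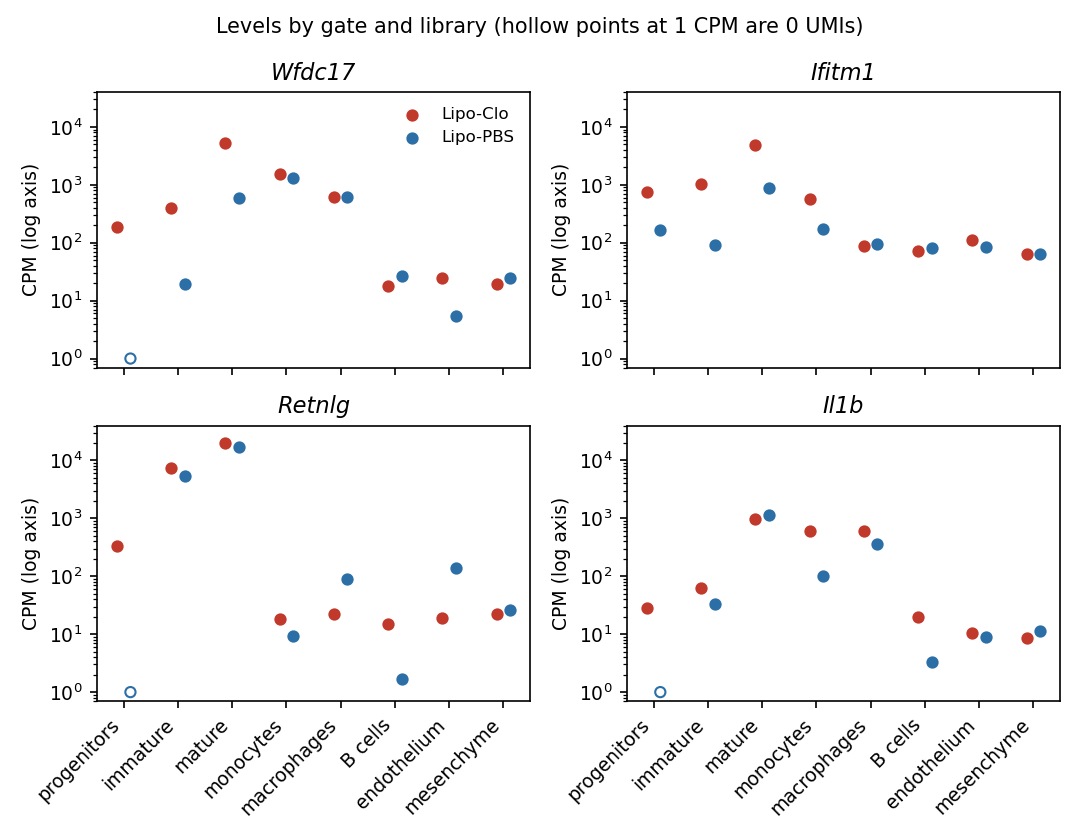
Points give the CPM (log axis) of Wfdc17, Ifitm1, Retnlg and Il1b in 8 gated cell groups of each library, with hollow points at 1 CPM for 0 UMIs. Wfdc17 is separated between the libraries in the neutrophil stages (5165 against 589 CPM in mature cells) but not in macrophages (611 against 610 CPM), and Retnlg lies close together in immature and mature neutrophils.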

How the data were processed

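Single-cell libraries of mandibular first molars with surrounding tissue, 1 for Lipo-Clo and 1 for Lipo-PBS, were analysed from the filtered matrices. The deposited values are raw UMI counts per gene and cell over 34285 genes. The matrix headers name Cell Ranger 8.0.0, while the submitters' processing notes name Cell Ranger 3.1.0, Seurat 3.1.1 and the build GRCm39. No cell annotation was used. The members and gene lists were chosen with earlier results of these data known.

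Cells were chosen by the rule given above. UMIs were summed over the chosen cells of a library and divided by their total (CPM). Genes were in use at a mean CPM of at least 100 and counted as higher or lower at 2-fold. A count of 0 was set at a floor of 3 counts, which makes the ratio a bound. With 1 library per condition no test was made, and intervals at 95% (Clopper-Pearson for shares, conditional binomial for ratios, tested on simulated data) cover counting error only. Named genes were the genes of the rule, listed genes in use, the 12 genes in each direction with the interval bound farthest from 0, and the 8 in each direction that differed most between stages, without mitochondrial, haemoglobin and unnamed genes. Some ranked genes are not reported here. Other genes were named after their values had been seen (the genes ranked in the restricted sets, sparse listed genes). Scrublet's automatic threshold called 0 and 1 doublets and had thus not worked, so the cells of highest score, 632 and 633, were left out as an alternative. They held 30 of the 239 and 9 of the 99 chosen cells. Python 3.11.15, scipy 1.17.1, scanpy 1.11.5, edgeR 4.0.16 and DESeq2 1.42.0 were used, the last pair for scaling factors alone. Start regions came from RefSeq windows of GRCm38.p6, a build other than that of the counts, and no coordinate was joined to the counts.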

Additional observations from a re-analysis of the deposited data

Results flagged for a closer look

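5 genes of the 1218 in use were at least 2-fold higher in the mature neutrophils of Lipo-Clo but lower in its immature neutrophils, and in each case the difference between the stages was not tested. The log2 ratio of Lipo-Clo over Lipo-PBS was 2.23 in mature and −2.13 in immature cells for Ahsp, a red cell gene, and the first of these was −3.27 with other cell types' markers under 5%. It was 1.43 and −2.34 for Igfbp3, an insulin-like growth factor binding protein, 1.31 and −1.65 for Isg15, 1.12 and −0.82 for Ptn, a heparin-binding growth factor, and 1.03 and −0.67 for Uqcc2, an assembly factor of mitochondrial complex III. The mature value of Isg15 was −0.58 with other cell types' markers under 5%, and a single cell held 50.7% of its Lipo-Clo UMIs. The mature values of Igfbp3, Ptn and Uqcc2 in that set were 1.59, 1.80 and 1.23. The immature cells were not chosen anew in that way.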

How the results depend on the processing

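No paired analysis was possible because Lipo-Clo and Lipo-PBS are 1 library apiece. Over the alternatives, 24 of 36 shares, 25 of 46 counts of genes, 98 of 105 list medians and 625 of 787 ratios of named genes were labelled the same as their main value. That label does not mean an unchanged value, and its limits are not given here. The inflammatory median, −0.23, kept it at 0.04 with TMM factors, and the chemoattractant receptor median, −0.41, at −0.15. With TMM and DESeq2 factors left out, which move every gene alike, 31 of 665 ratios of named genes changed sign, over 18 genes. Of these 31, 6 were of genes past 2-fold. The 665 still hold settings that only took genes out of the totals, which also move every gene alike. The median of all genes was 0.15 with S100a8 and S100a9 taken out, against 0.11 in the main setting. It was 0.03 with ribosomal, haemoglobin and mitochondrial genes taken out. Only ratios near 0 could change sign in these settings. The share of mature neutrophils was higher in Lipo-Clo under every alternative run. It was 1.53% in Lipo-PBS with S100a8 plus S100a9 at least 1%, 2.21% and 0.877% at 5%, 3.13% and 1.38% with no limit on Col1a1, and 2.08% and 0.577% with cells of 500 or more genes and 10% or less mitochondrial UMIs, a log2 ratio of 1.85. The counts of higher and lower genes were 113 and 50 with TMM factors, 99 and 187 after thinning, 102 and 221 at a mean CPM of 50, 22 and 36 at 200, 1009 and 2406 with at least 1 UMI in each library, 176 and 203 at 1.5-fold and 11 and 30 at 3-fold, and 127 were lower with at least 500 genes. DESeq2 size factors gave 34 and 112. The alarmin and specific granule medians, over lists that hold genes of the rule, were 0.24 and 0.29, and were 0.51 and 0.56 with TMM factors, a shift of 0.27 shared by all genes, and 0.41 and 0.85 without doublets. Mature over immature gave 43 and 55 genes with the rule's genes out of the totals. Krt6a was at 0.21 with S100a8 plus S100a9 at least 5%.

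The remaining alternatives were added after the data had been seen. With S100a8 plus S100a9 at least 10% and haemoglobin under 5%, shares were 1.69% and 0.618%, 127 genes were higher and 174 lower, of which 14 and 37 were among the main 50 and 84, and 168 were higher in mature than immature cells. The gelatinase, interferon and marker medians were −0.18, 0.77 and −0.33, and Amelx (−0.17), Ahsp (−1.29) and Krt6a (0.88) changed sign. With other cell types' markers under 5%, the Lipo-PBS share was 0.888%, 131 genes were lower, and Ahsp (−3.27) and Isg15 (−0.58) changed sign. With under 3 monocyte UMIs the Lipo-Clo share was 2.27%. The cause of these changes was not tested. The 99 Lipo-PBS cells with 190196 UMIs limit the precision.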

Other observations

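UMIs of cytokine genes were found in most of the chosen cells of both libraries. At 500 UMIs per cell, 170 of 239 Lipo-Clo cells (71.1%, 64.9 to 76.8%) and 70 of 99 Lipo-PBS cells (70.7%, 60.7 to 79.4%) had a UMI of Il1b, Cxcl2, Ccl3, Ccl4 or Tnf. The share was 26.6% and 19.1% in immature neutrophils and 2.07% and 0.823% in B cells, at the same 500 UMIs. Wfdc17 was seen in 106 of the 170 Lipo-Clo cells with such a UMI (62.4%, 54.6 to 69.7%) and in 24 of the 69 without (34.8%, 23.7 to 47.2%). In Lipo-PBS it was seen in 14 of 70 with (20%, 11.4 to 31.3%) and 0 of 29 without, which limits the share of cells with a UMI at this depth to 11.9% and says nothing of cells that express the gene below it. These are descriptions of single libraries, and whether the libraries differ in this was not tested.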
